A study of Mus musculus with 3 samples.

Results

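The Cd209a positive dendritic cells described here are 459 of 35247 cells from 3 single-cell RNA libraries of injured mouse muscle. They were selected on raw unique molecular identifier (UMI) counts, where a UMI stands for 1 captured transcript: at least 2 Cd209a UMIs, no Cd163, Pdgfra or Cd3e UMI, fewer than 2 UMIs of Xcr1 and Clec9a together and fewer than 3 of Ccr7 and Ccl22 together. This selection is called the Cd209a gate. Kept cells had at least 500 genes and under 10% mitochondrial UMIs. By library the gate held 187 cells (young PBS), 78 cells (old PBS) and 194 cells (old rMETRNL). The levels of the selecting genes in these cells are therefore a description of the choice and not a finding.

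All 3 libraries came from tibialis anterior (TA) muscle of C57/BL6J mice, taken 4 days after injury with BaCl2, a salt that kills muscle fibres. Young mice were 3 to 4 months old and old mice 24 to 26 months. The PBS groups were given vehicle, and the old rMETRNL group was given recombinant METRNL (meteorin-like, a secreted protein). Each library pooled 3 muscles. There was 1 library per group and no replicate error. No test of age or treatment was possible, and the 95% intervals given below are exact and cover counting error only. Differences between mice and between library preparations cannot be told apart from age or treatment, and both comparisons use the same old PBS library. Each library had 12168 to 14012 barcodes and 179295668 to 228966697 UMIs, and 88.0% to 93.7% of the barcodes were kept, the lowest share in old PBS. A kept cell had a median of 13907.5 to 15609 UMIs. Between 58 and 80 barcodes were shared by a pair of libraries, and none of those was in the gate.

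Dendritic cells take up antigen in tissue and display its peptides on MHC class II molecules to T cells. Conventional dendritic cells depend on the growth factor receptor Flt3 and are divided into a type 1 subset, marked by Xcr1 and Clec9a, and a type 2 subset, of which Cd209a, a C-type lectin related to DC-SIGN, is a marker in the mouse. After maturation they express Ccr7, the receptor that guides them to lymph nodes, and Ccl22. Monocytes, which enter injured muscle in large numbers and carry Ly6c2, can give rise to cells with some of the same transcripts.

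The transcripts of the gate were those of antigen presenting cells. Levels are UMIs summed over the gate cells of a library and scaled to their total, as CPM. Cd74, the invariant chain that escorts class II molecules, stood at 20768 CPM (young PBS), 20769 CPM (old PBS) and 18602 CPM (old rMETRNL). H2-Ab1, a class II beta chain, stood at 9896, 9823 and 9115 CPM in the same order, which is used for every set of 3 values below. The 4 markers given for these cells were all present. Cd209a (GRCm38 chr8:3743397-3748984, minus strand) stood at 864, 1059 and 764 CPM, with medians of 8, 9 and 6 UMIs per gate cell and maxima of 50, 69 and 53. Flt3 stood at 95.2, 73.6 and 69.8 CPM. H2-Oa, a non-classical class II chain that restrains peptide loading, stood at 150, 92.2 and 84.8 CPM. Klrd1, the CD94 chain of lectin-like receptors best known from natural killer cells, stood at 354, 189 and 309 CPM. Marker lists of other lymphocytes were low but not at 0. The 7 natural killer markers summed to 38.4, 5.59 and 7.48 CPM, of which Gzma gave 23.6 CPM in young PBS, from 1 cell, and 0 in both old libraries, and Prf1 had no UMI. The 6 B cell markers summed to 34.9, 12.1 and 14.96 CPM, and Ms4a1 and Pax5 had no UMI. The 8 T cell markers summed to 111, 240.4 and 157.5 CPM, mostly Il7r at 88.2, 231 and 145 CPM, while Cd3d did not pass 2.49 CPM. The Cd209 genes lie close together as a family, but no other gene's transcript held any of the 1677 distinct stretches of 50 bases in the 4 annotated Cd209a transcripts.

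Cells on either side of the Cd209a threshold were compared by content. Pooled over the libraries, 226 cells with 1 Cd209a UMI that passed the other conditions had 20.2 CPM of Flt3, 64.5 of Klrd1 and 1682 of C1qa, a complement gene of macrophages. The 72 cells with 2 UMIs, just inside, had 53.2, 196 and 827 CPM of the same genes. The 195 cells with 3 to 9 UMIs had 89.6, 328 and 192 CPM, and the 192 cells with 10 or more had 81.4, 319 and 443 CPM. In old PBS the step at the threshold was smaller for these genes: its 62 cells with 1 UMI had 11.7, 12.9 and 2171 CPM and its 9 cells with 2 UMIs 18.6, 27.9 and 1638 CPM. Those 9 cells held 107469 UMIs in all, so their low levels rest on few UMIs. H2-Oa rose from 1.17 to 9.3 CPM at this step in old PBS and from 24.6 to 112 CPM in the pooled cells. As a background, 2 or more Cd209a UMIs were found in cells that should lack the gene: 0.522%, 0.210% and 0.719% of Pdgfra positive fibro-adipogenic cells, whose median depths were 27846, 24153 and 26438 UMIs. Among Cdh5 positive endothelial cells the counts were 0 of 640, which allows up to 0.469% when 3 counts are taken as the limit, 0 of 791, which allows up to 0.379% by the same limit, and 1 of 863 (0.116%), at median depths of 12459.5, 5399 and 9218 UMIs. The gate cells had median depths of 10611, 11966 and 10632.5 UMIs. Of 862 kept cells with at least 2 Cd209a UMIs, the Ccr7 and Ccl22 condition removed 254, Cd163 removed 121, Pdgfra 43, Xcr1 and Clec9a 19 and Cd3e 1, where a cell could meet more than 1 condition. The removals differed by library. The Ccr7 and Ccl22 condition removed 80 of 320 such cells, 76 of 189 and 98 of 353, and 58.4%, 41.3% and 55.0% of them were left in the gate.

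The gate was not uniform. Cells with at least 3 Siglech UMIs, termed the Siglech sub-gate, made up 5.88%, 5.13% and 4.64% of it (11, 4 and 9 cells). Pooled over the libraries they had 659 CPM of Ccr9 and 826 of Tcf4, which are plasmacytoid dendritic cell genes. Irf8 stood at 1159 CPM, but it was as high, at 1146.5 CPM, in the cells selected on Xcr1 and Clec9a that are compared below. H2-Ab1 stood at 3214 CPM against 11288 in the gate cells outside both sub-gates. By library, H2-Ab1 stood at 626, 5281 and 5049 CPM in the Siglech sub-gate. Cd209d, a paralogue of Cd209a, stood at 434, 13.3 and 255 CPM there against 101, 64.1 and 45.9 CPM in the cells outside both sub-gates, lower in the 4 cells of old PBS and higher in the other libraries. Cells with at least 5 UMIs of C1qa, C1qb and C1qc together, termed the C1q sub-gate, made up 10.7% (20 cells), 21.8% (17 cells) and 11.9% (23 cells), and their share of the gate in old PBS was 2.04 (1.003 to 4.10) times that in young PBS. These cells went against the label. They had 12649 CPM of Apoe against 306, 1565 of Gpnmb against 23.0 and 701 of Trem2 against 15.2, genes of lipid-handling macrophages, and less Flt3 (38.4 against 91.1 CPM) and Klrd1 (102 against 371 CPM). They were also deep, with median UMIs of 22659.5, 14052 and 18524 per cell, and their identity was not tested. Scrublet, a caller of droplets that hold more than 1 cell, marked 1, 1 and 2 cells of the whole gate, but over all kept cells it called 1.09%, 1.72% and 2.15% where 9.73%, 10.1% and 11.2% were expected from the cell numbers. The other 156, 57 and 162 cells had neither excess, and they are called the remaining cells below. Among the remaining cells Flt3 stood at 108, 94.8 and 73.5 CPM and Klrd1 at 429, 261 and 358 CPM.

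**Figure D1:**
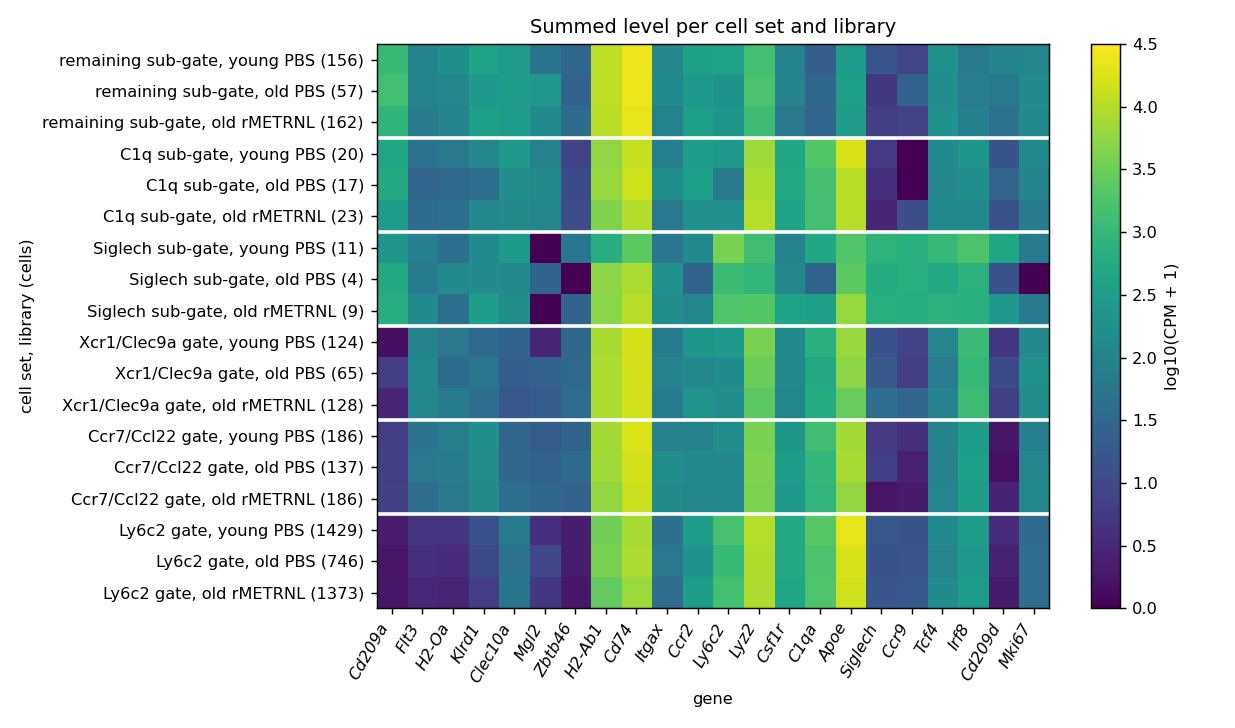
Levels of 22 genes (columns) in the remaining cells and the C1q and Siglech sub-gates of the Cd209a gate, and in 3 comparison gates, by library (rows, number of cells in brackets). Colour is log10(CPM + 1) of the UMIs summed over the cells of a row. Flt3, H2-Oa and Klrd1 were low throughout the Ly6c2 gate rows, and Apoe and C1qa were high in the C1q sub-gate.

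Set against the neighbouring populations of the same libraries, the Cd209a gate differed most from the Ly6c2 gate. That gate (at least 3 Ly6c2 UMIs, fewer than 2 of Cd209a) was chosen on a monocyte gene. A gene was called here if its CPM differed at least 2-fold in the same direction in each of the 3 libraries. Against the Ly6c2 gate 4.09% of 12016 genes measured were called higher and 4.24% lower. Of 14 class II presentation genes 11 were called higher and 1 lower, and of 11 receptors of natural killer type 8 were called higher and none lower. Of 20 lysosomal and lipid genes 14 were lower. H2-Oa was 37.3, 32.6 and 43.8-fold higher, Klrb1b, another lectin-like receptor of the natural killer complex, 34.6, 30.4 and 38.8-fold, and Flt3 24.98, 23.8 and 30.1-fold. Genes lower in the Cd209a gate were led by Xcl1, Acod1, Slfn4, Gzmb, Spic and Chil3. Xcl1 and Gzmb are effector genes of natural killer and T cells, and 5 of 6 natural killer markers were called lower and none higher. Acod1, Slfn4, Spic and Chil3 are known from inflammatory monocytes and red pulp macrophages. Against the Xcr1/Clec9a gate, chosen on at least 2 UMIs of these type 1 genes, 2.14% of 9189 genes were called higher and 2.25% lower. Mcemp1, Ffar2, Hcar2, Fcor, Ifitm6 and Clec10a led the higher genes, and Cd7, an immunoglobulin superfamily receptor, was 15.2, 9.6 and 11.5-fold higher. Itgae, the CD103 integrin chain, and Tlr3, a receptor for double-stranded RNA, were lower, and both are type 1 genes. Against the Ccr7/Ccl22 gate, chosen on at least 3 UMIs of these maturation genes, 1.61% of 9518 genes were called higher, among them Cd209d, Ccr9, Cd300c, Kmo, Cd7 and Clec10a. Ccr9 was carried by the Siglech sub-gate, with 217 UMIs in its 24 cells against 42 in the 375 remaining cells. The 2.7% called lower included Il12b, Fscn1, Cacnb3 and Apol7c, which mature dendritic cells express. The gates were chosen on expression in these cells, so these ratios describe the populations and carry no test.

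Fewer of the kept cells of old PBS muscle were in the Cd209a gate. Their share of kept young PBS cells was 1.64% (95% interval 1.42 to 1.89). The old PBS share was 0.705% (0.558 to 0.880), and the share with rMETRNL was 1.52% (1.31 to 1.74). The interval of old PBS did not overlap those of the other libraries. The share in old PBS was 0.430 (0.326 to 0.563) times that in young PBS, and the share in old rMETRNL was 2.15 (1.65 to 2.84) times that in old PBS. With every cell thinned to 3000 UMIs before selection the shares were 1.32%, 0.714% and 1.25%, and the ratios were 0.541 (0.400 to 0.725) and 1.75 (1.301 to 2.36). Of the cells with a UMI of Ptprc, the CD45 gene of leukocytes, the gate was 2.29%, 1.03% and 2.21%, with ratios of 0.451 and 2.14. Without the Siglech and C1q sub-gates the ratios were 0.377 (0.273 to 0.513) and 2.46 (1.81 to 3.38). The differences were smaller among all kept cells with at least 2 Cd209a UMIs and no other condition. Their shares were 2.81%, 1.71% and 2.76% and their ratios 0.609 (0.506 to 0.731) and 1.62 (1.35 to 1.94), so the size of the gate's ratios depended on the conditions on other genes. The background moved in the same directions. The share of Pdgfra positive cells with at least 1 Cd209a UMI was 1.28%, 0.420% and 1.49%, with age and treatment ratios of 0.330 (0.109 to 0.838) and 3.55 (1.44 to 10.5), and at 2 UMIs the ratios were 0.403 (0.0702 to 1.615) and 3.42 (0.939 to 18.7) from 9, 3 and 13 cells. Its part in the gate's ratios was not tested.

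The Ly6c2 and Xcr1/Clec9a gates also held smaller shares of the kept cells in old PBS. The Ly6c2 gate held 1429, 746 and 1373 cells, with ratios of 0.538 (0.492 to 0.589) for age and 1.59 (1.46 to 1.74) for treatment. Counted within the Cd209a and Ly6c2 gates together, the Cd209a gate was 11.6%, 9.47% and 12.4% and the age and treatment ratios were 0.818 (0.620 to 1.07) and 1.31 (1.001 to 1.72). After thinning, the Ly6c2 gate of kept cells had ratios of 0.491 (0.434 to 0.555) and 1.795 (1.59 to 2.04), and the Cd209a gate was 14.3%, 15.5% and 15.2% of both gates together, with ratios of 1.08 (0.802 to 1.46) and 0.976 (0.728 to 1.32). Within these gates both ratios changed their side of 1 after thinning, and neither thinned interval left out 1. The Ly6c2 gate was not only monocytes by its transcripts, with macrophage markers summing to 31913, 26873 and 24799 CPM and monocyte markers to 2921, 1943 and 3041 CPM. The Xcr1/Clec9a gate held 124, 65 and 128 cells (ratios 0.541 and 1.70), which after thinning gave 0.664 (0.362 to 1.19) and 1.63 (0.928 to 2.95). The Ccr7/Ccl22 gate held 186, 137 and 186 cells (ratios 0.760, 0.605 to 0.952, and 1.17, 0.937 to 1.48), and after thinning the ratios were 1.003 (0.770 to 1.304) and 0.918 (0.705 to 1.20). Among the 3 dendritic gates together the Cd209a gate was 37.6%, 27.9% and 38.2%, with ratios of 0.740 (0.561 to 0.969) and 1.37 (1.05 to 1.81). Shares sum to a whole, so fewer gate cells and more cells of other types cannot be told apart, and the dissociation yield of each library was not measured.

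**Figure D2:**
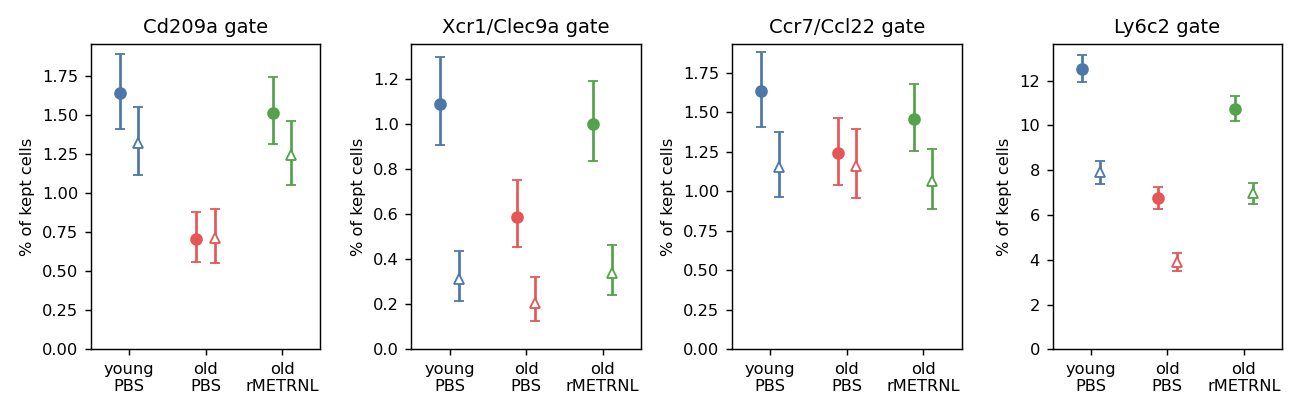
Share of kept cells (y axis, %, each panel from 0 on its own scale) in the Cd209a, Xcr1/Clec9a, Ccr7/Ccl22 and Ly6c2 gates, by library. Filled circles are raw UMIs, open triangles cells thinned to 3000 UMIs, and bars exact 95% binomial intervals; the Cd209a gate was 0.705% in old PBS against 1.64% and 1.52% in the other libraries.

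Within the gate the contents of the cells were compared next, with 7473 genes that had at least 50 UMIs over the 3 libraries. A gene was called if its CPM ratio was at least 1.5-fold and its counting interval left out 1. In old PBS 8.42% of genes were called higher than in young PBS (629 genes) and 7.35% lower (549 genes). In old rMETRNL 4.43% were called higher than in old PBS (331 genes) and 4.76% lower (356 genes). Counts of list genes called in the whole gate below stand against these shares, and a count near them is no result about its list. With 78 cells in old PBS, 1 cell could carry a gene. When each gene's highest cell in every library was left out, and separately when only the remaining cells were used, 303 and 314 of the age calls and 177 and 146 of the treatment calls, higher and lower respectively, met the criteria each time. A gene named below need not be among these, and values for the remaining cells are given beside some of them. Of 6383 genes measured in the remaining cells 7.02% were called higher and 6.89% lower in old PBS, and 5.11% higher and 3.9% lower in old rMETRNL.

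Interferon-stimulated genes, which cells switch on in response to interferons, were lower in the old PBS gate. Of 22 measured, 14 were called lower and none higher in old PBS, with a median log2 ratio of −0.84 against −0.01 for all genes, and 13 were called higher and none lower in old rMETRNL, with a median of 0.67 against 0.02. There were 12 genes called in both comparisons, which share the old PBS library. Of the 17 genes with a promoter entry, 11 held 2 copies of the letters GAAA spaced by 2 bases, on either strand, in any of their promoters. These letters are the core of the interferon-stimulated response element, and the window ran from 250 bases before the start to 50 after. Over all 32851 promoters, each counted by itself, 3.44% held them, so genes were set against single promoters. The 170 bases before the start are shown for 5 of these genes, chosen because they were called in both comparisons and hold the letters there. Of the 11 with the letters, Oas1a, Stat2, Gbp2, Irgm1 and Trim30a were called in neither comparison. They are from RefSeq, build GRCm38.p6, 5′ to 3′ in the direction of the gene, with matches on either strand in capitals, and in Bst2 and Isg15 the matches overlap.
Bst2 (chr8:71537473-71537642, minus strand): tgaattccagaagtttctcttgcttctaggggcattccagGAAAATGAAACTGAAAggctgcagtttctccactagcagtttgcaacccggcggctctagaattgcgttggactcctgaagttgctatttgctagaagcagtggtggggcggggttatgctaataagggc
Isg15 (chr4:156200819-156200988, minus strand): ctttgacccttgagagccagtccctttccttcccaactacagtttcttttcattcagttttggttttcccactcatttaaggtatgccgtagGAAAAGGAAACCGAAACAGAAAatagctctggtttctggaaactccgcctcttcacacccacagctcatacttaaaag
Rsad2 (chr12:26456453-26456622, minus strand): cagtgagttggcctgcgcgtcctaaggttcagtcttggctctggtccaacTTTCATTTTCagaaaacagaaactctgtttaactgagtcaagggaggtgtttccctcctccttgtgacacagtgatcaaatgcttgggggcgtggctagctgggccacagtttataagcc
Ifit3 (chr19:34583359-34583528, plus strand): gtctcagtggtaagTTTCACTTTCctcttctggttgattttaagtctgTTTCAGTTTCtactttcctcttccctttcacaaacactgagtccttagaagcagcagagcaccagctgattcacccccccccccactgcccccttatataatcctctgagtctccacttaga
Ifit1 (chr19:34640719-34640888, plus strand): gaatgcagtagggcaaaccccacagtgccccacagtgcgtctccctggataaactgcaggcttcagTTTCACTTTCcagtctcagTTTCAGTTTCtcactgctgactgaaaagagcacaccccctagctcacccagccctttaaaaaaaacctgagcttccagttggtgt

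A match is a description of the letters and shows neither binding nor a cause. No such match was found for the 14 dissociation stress genes with an entry, and 1 of the 12 class II presentation genes with an entry had a match. The letters CCAAT, the core of the Y box of class II promoters, were in any promoter of 10 of those 12 genes (83.3%), against 37.4% of all promoters counted singly.

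Bst2 encodes tetherin, which holds budding viruses at the cell surface, and its level was 882, 425 and 640 CPM. Its age and treatment ratios were 0.482 (0.434 to 0.534) and 1.51 (1.36 to 1.68). Irf7, the transcription factor that amplifies type I interferon, stood at 485, 233 and 375 CPM. Isg15, a ubiquitin-like modifier, stood at 235, 115 and 235 CPM, and its age and treatment ratios were 0.488 (0.398 to 0.595) and 2.05 (1.68 to 2.51). Old PBS was the lowest library for each of these genes. Ifit3, which binds viral RNA together with Ifit1, stood at 163, 47.5 and 128 CPM, and its age and treatment ratios were 0.292 (0.213 to 0.392) and 2.69 (1.998 to 3.70). Ifit1 stood at 83.4, 45.7 and 77.3 CPM and Rsad2, the antiviral enzyme viperin, at 135, 75.5 and 152 CPM. Usp18, which removes Isg15 from proteins, stood at 65.0, 19.6 and 58.6 CPM. Ifi44 had 4.66 CPM in old PBS against 27.9 and 23.3. Oas1a, Cmpk2, Irgm1, Gbp2, Ifi204, Stat2 and Trim30a were called in neither comparison.

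The lower level was spread over the cells. The median young PBS gate cell had 2818 CPM of these genes together (quartiles 1808 and 4911). The old PBS median was 1497 CPM (625 and 2876) and that with rMETRNL 2414 CPM (1168 and 4152), so the middle ranges of the libraries overlapped. In the remaining cells 11 genes were called lower and 1 higher for age (median log2 ratio −0.59), and 12 higher and none lower for treatment (median 0.59). Other cells of the same libraries were compared in the same way. In the Ly6c2 gate 19 were lower in old PBS, where 10.1% of all its genes measured were, and 19 higher in old rMETRNL, where 7.67% were (medians −1.01 and 0.94). In the Xcr1/Clec9a gate 17 were lower, against 5.48% of all genes, and 13 higher, against 4.04% (−1.12 and 0.68). In other Ptprc positive cells 18 were lower, against 10.2%, and 14 higher, against 6.03% (−1.05 and 0.70). In the Ccr7/Ccl22 gate 5 were lower, against 4.85%, and 2 higher, against 7.25% (−0.25 and 0.044). In each of these sets at most 1 gene was called the other way in a comparison, where the shares of all genes called so, for age and treatment, were 3.62% and 2.37% in the Ly6c2 gate, 6.65% and 5.21% in the Xcr1/Clec9a gate, 4.22% and 3.05% in other Ptprc positive cells and 5.9% and 3.45% in the Ccr7/Ccl22 gate. The difference between populations was not tested.

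Genes that tissue dissociation induces were called in the same directions. Of 18 measured, 7 were called lower in old PBS and 5 higher in old rMETRNL (medians −0.43 and 0.30), and their summed level was 19230, 15610 and 18804 CPM. Jun, an immediate early transcription factor, stood at 830, 338 and 769 CPM, and its age and treatment ratios were 0.407 (0.363 to 0.456) and 2.27 (2.03 to 2.55). Egr1, another, stood at 220, 108 and 255 CPM, and Hspa1a, an inducible heat shock protein, at 3133, 1755 and 2823 CPM. The part of cell handling in the other differences between these libraries was not tested.

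**Figure D3:**
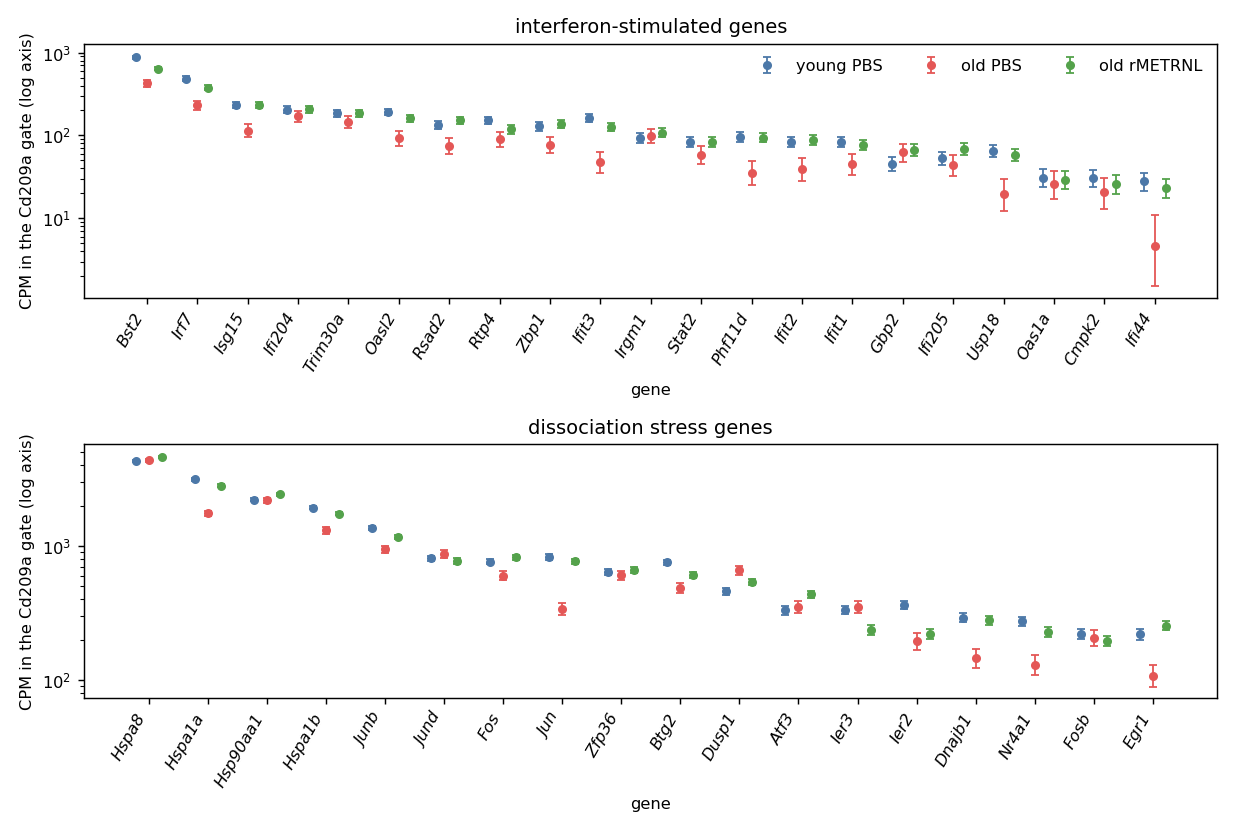
CPM in the Cd209a gate (y axis, log scale) for the interferon-stimulated genes plotted (top) and 18 dissociation stress genes (bottom), 1 point per library with its exact 95% counting interval. For most interferon-stimulated genes the old PBS point lies below both others, as for Ifit3 at 47.5 CPM against 163 and 128.

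**Figure D4:**
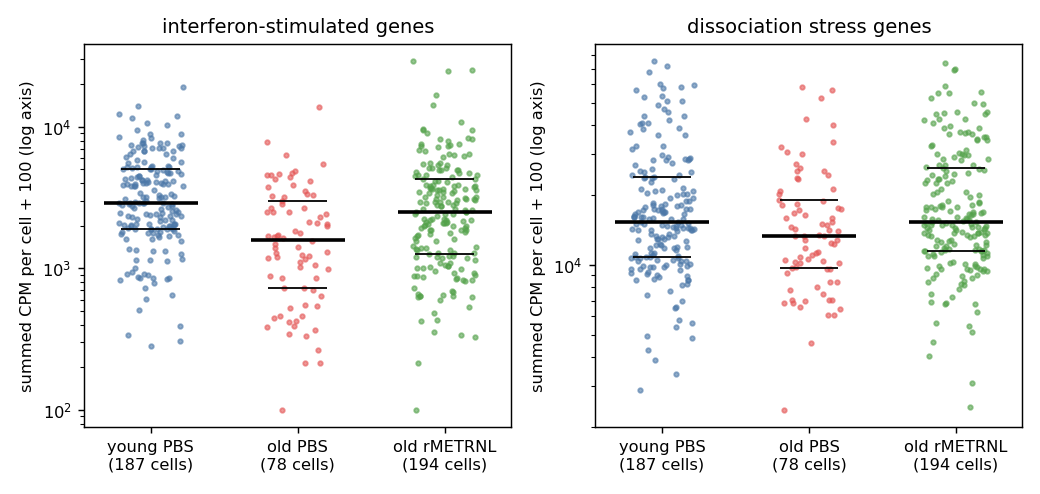
Summed CPM of the interferon-stimulated genes (left) and dissociation stress genes (right) in every cell of the Cd209a gate (y axis, log scale after adding 100), 1 dot per cell, by library. Thick bars are medians and thin bars quartiles; the interferon-stimulated medians were 2818, 1497 and 2414 CPM and the cells of the libraries overlapped widely.

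Most transcripts of class II presentation genes differed little. Of 12 with enough UMIs, none was called higher and 2 lower in old PBS, where 7.35% of all genes were called lower. The median log2 ratio was −0.16 (−0.498 to −0.0051 over the list's genes). None was called in either direction in old rMETRNL (median −0.12). The called genes were H2-DMb2, a chain of the peptide exchange factor DM, at 89.1, 45.7 and 57.4 CPM, and H2-Oa, whose age and treatment ratios were 0.614 (0.486 to 0.770) and 0.919 (0.720 to 1.18). H2-Aa stood at 10335, 10299 and 9178 CPM and H2-Eb1 at 9612, 9514 and 8674 CPM. Among 13 class I presentation genes, Psmb9, an immunoproteasome subunit, was called lower in old PBS (246, 146 and 197 CPM) and Erap1, which trims peptides, higher in old rMETRNL (28.4, 20.5 and 34.1 CPM).

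Some genes of signals to T cells were called. In the remaining cells 3 of 13 were called higher and 1 lower in old PBS (median 0.14), against 7.02% and 6.89% of all genes. In old rMETRNL 1 was called higher and 2 lower (median −0.20), against 5.11% and 3.9% of all genes. In the whole gate, of 13 genes, Cd274, the inhibitory ligand PD-L1, stood at 37.1, 76.4 and 52.4 CPM and Havcr2, the inhibitory receptor TIM-3, at 55.5, 96.9 and 50.7 CPM, and both were called higher in old PBS. With each gene's highest cell left out the Havcr2 age ratio was 1.49 (1.11 to 1.98), under the 1.5-fold of a call. Only Havcr2 was called lower in old rMETRNL, with a ratio of 0.523 (0.400 to 0.686). The co-stimulatory genes Cd80, Cd86 and Cd40 were called in neither comparison of the whole gate, while in the remaining cells Cd40 was called higher in old PBS and Cd80 lower in old rMETRNL.

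Some lectins were higher in old PBS and some receptors of natural killer type lower. Of 13 lectin and uptake receptors, 5 were called higher in old PBS (median log2 ratio 0.51) and 2 lower in old rMETRNL. In the remaining cells 2 of 12 were called higher and none lower in old PBS (median 0.16). Mgl2, the CD301b lectin of type 2 dendritic cells, stood at 58.9, 206 and 123 CPM, and its age and treatment ratios were 3.49 (2.81 to 4.36) and 0.595 (0.498 to 0.712). In the remaining cells its ratios were 4.64 and 0.527. Mrc1, the mannose receptor CD206, stood at 64.6, 187 and 150 CPM. Clec4e, the receptor Mincle, was higher in old PBS (31.0, 130 and 41.1 CPM), but 41.7% of its old PBS UMIs were in 1 cell, and in the remaining cells its age ratio was 1.53 (0.919 to 2.495) and its treatment ratio 0.636 (0.390 to 1.05), neither a call. Clec10a, a lectin close to Mgl2, was called in neither comparison. Of 8 receptors of natural killer type, Klrd1 and Cd7 were called lower and Cd226 higher in old PBS. Klrd1 was 0.534-fold (0.456 to 0.624) in old PBS against young PBS and 1.64-fold (1.40 to 1.92) in old rMETRNL against old PBS. In the remaining cells these were 0.608 and 1.37, the latter short of the call. Klrk1, the NKG2D receptor, stood at 176, 122 and 197 CPM and was called higher in old rMETRNL. Cd7 stood at 250, 147 and 210 CPM, and its old PBS level was 0.589 (0.490 to 0.703) times the young one. Cd209d, the other Cd209 gene with enough UMIs, stood at 105, 50.3 and 49.0 CPM, and its age and treatment ratios were 0.478 (0.349 to 0.645) and 0.975 (0.701 to 1.37).

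Of 22 transcription factors of dendritic cells, 6 were called higher and 1 lower in old PBS, and 1 was called higher and 3 lower in old rMETRNL. Id2, an inhibitor of helix-loop-helix factors needed for conventional dendritic cells, stood at 114, 328 and 185 CPM, and its age and treatment ratios were 2.89 (2.45 to 3.40) and 0.565 (0.490 to 0.652). Rbpj, the nuclear partner of Notch, stood at 131, 254 and 208 CPM, and Etv3, a repressor tied to monocyte-derived dendritic cells, at 282, 606 and 418 CPM. Irf4, a factor of the type 2 subset, stood at 43.2, 70.8 and 63.6 CPM, and its age ratio was not called in the remaining cells (1.31, 0.897 to 1.89). Zbtb46, a factor of the conventional lineage, stood at 28.8, 18.6 and 32.4 CPM, with a treatment ratio of 1.74 (1.05 to 3.002), and of 1.56 (0.909 to 2.83) in the remaining cells, which was not a call. Of 10 macrophage factors, Cebpb, Zeb2 and Pparg were called higher in old PBS.

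Receptors for growth and differentiation signals included 3 of 19 called higher and 1 lower in old PBS, where 8.42% and 7.35% of all genes were. Csf2rb, the shared beta chain for GM-CSF, stood at 261, 458 and 396 CPM and its neighbour Csf2rb2 at 48.0, 106 and 67.3 CPM. Il7r, an interleukin 7 receptor chain also used for thymic stromal lymphopoietin, stood at 88.2, 231 and 145 CPM, while Cd3d, a T cell gene, did not pass 2.49 CPM. Ifngr1, an interferon gamma receptor chain, was the one called lower (268, 162 and 218 CPM). Treatment calls were 3, all lower, and comprised Csf1r, Csf2rb2 and Il7r, of which Csf2rb2 (0.752, 0.555 to 1.03) and Il7r (0.822, 0.655 to 1.04) were not called in the remaining cells. Flt3 was called in neither comparison, with ratios of 0.773 (0.590 to 1.01) and 0.949 (0.722 to 1.26). Kit, a receptor tyrosine kinase described as a METRNL receptor, stood at 42.8, 37.3 and 29.9 CPM and Metrnl itself at 83.4, 115 and 87.3 CPM, and neither was called.

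Some migration receptors and chemokines were lower in old PBS, while more of the chemokines were higher. Of 9 chemokine and migration receptors, 2 were called higher and 2 lower in old PBS, and 2 higher and 1 lower in old rMETRNL. Gpr183, an oxysterol receptor that positions dendritic cells, stood at 186, 73.6 and 166 CPM, and its age and treatment ratios were 0.395 (0.307 to 0.503) and 2.25 (1.77 to 2.90). Cx3cr1, the fractalkine receptor, stood at 72.0, 31.7 and 68.6 CPM, and its age and treatment ratios were 0.440 and 2.17. Ccr1 and Ccrl2 were called higher in old PBS, and in the remaining cells their age ratios were 1.36 (0.856 to 2.13) and 0.867 (0.543 to 1.35), neither a call. Of 16 chemokine ligands, 7 were called higher and 2 lower in old PBS, and 3 higher and 6 lower in old rMETRNL. The 2 lower were Ccl3 (173, 60.6 and 139 CPM) and Ccl4 (593, 300.0 and 621 CPM), which recruit leukocytes, and both were also called higher in old rMETRNL, in the remaining cells as in the whole gate. Cxcl16, the ligand of Cxcr6, stood at 255, 449 and 252 CPM. Ccl8 was called higher in old PBS (48.5, 239 and 142 CPM), but 50.4% of its old PBS UMIs were in 1 cell and its ratio in the remaining cells was 1.79 (0.859 to 3.65). Ccl17 had 0.437, 40.1 and 4.16 CPM, from 1, 4 and 4 cells.

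Among 21 cytokines and growth factors, 4 were called higher and 4 lower in old PBS, and 1 higher and 3 lower in old rMETRNL. Il1rn, the antagonist of the interleukin 1 receptor, stood at 114, 321 and 119 CPM, and its age and treatment ratios were 2.81 (2.39 to 3.32) and 0.371 (0.316 to 0.435), and kept both calls in the remaining cells. Il1b itself, at 2103, 2412 and 2533 CPM, was not called. Areg, an EGF receptor ligand, stood at 48.5, 26.1 and 46.1 CPM. Among 12 pattern receptors and sensors, Cd14, the co-receptor for lipopolysaccharide, stood at 438, 967 and 476 CPM, and its age and treatment ratios were 2.21 (2.02 to 2.41) and 0.492 (0.452 to 0.536), and Nlrp3, an inflammasome sensor, at 69.9, 130 and 68.6 CPM. Ifih1, the RNA sensor MDA5, moved the other way (75.1, 43.8 and 79.4 CPM). Of 7 Fc receptors, Fcgr3 was called higher in old PBS and lower in old rMETRNL (82.5, 173 and 102 CPM). Of 6 measured in the remaining cells, 1 was called higher and 2 lower in old PBS, and none higher and 1 lower in old rMETRNL. Of 16 integrin and adhesion genes, 3 were called higher and 1 lower in old PBS, against 8.42% and 7.35% of all genes. In old rMETRNL 3 were called lower, against 4.76% of all genes, and Itgax, the CD11c chain, was called in both comparisons (109, 164 and 91.8 CPM). Its age ratio was 1.27 (0.996 to 1.62) in the remaining cells, which was not a call.

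**Figure D5:**
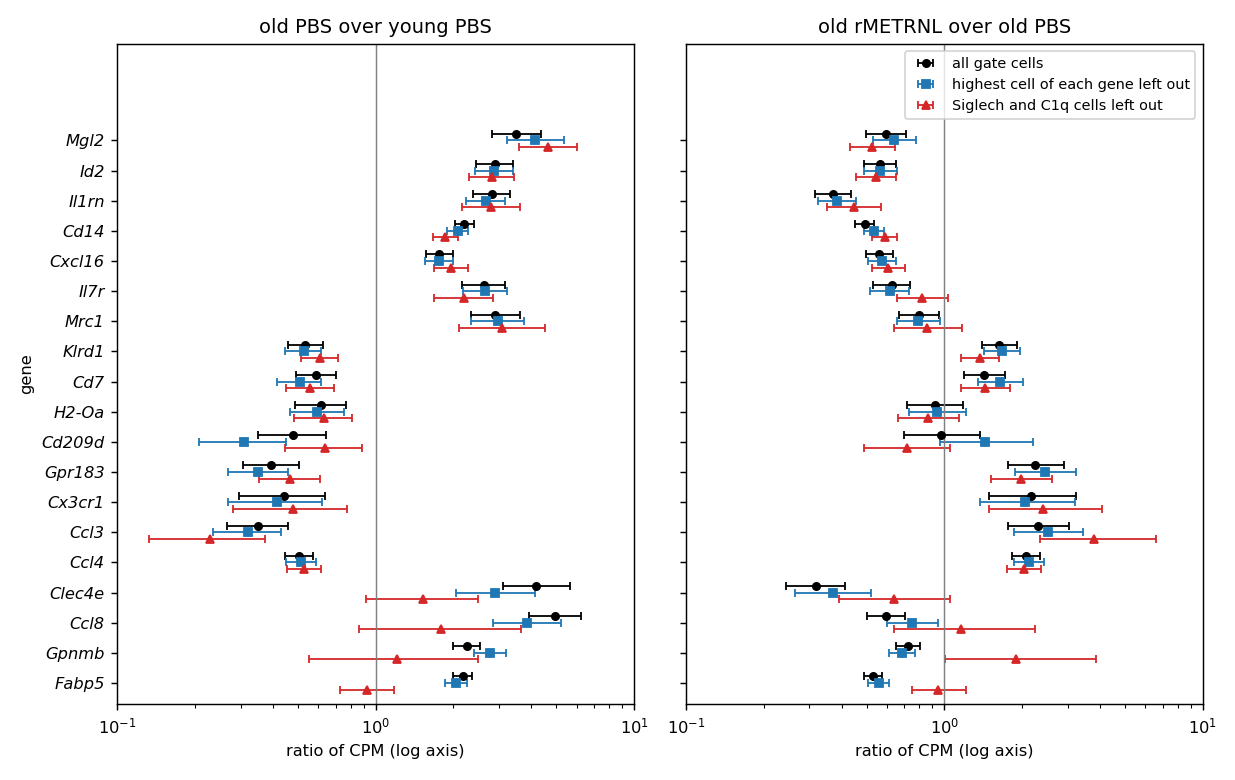
CPM ratios (x axis, log scale) of 19 genes for old PBS over young PBS (left) and old rMETRNL over old PBS (right), with exact 95% counting intervals, in all gate cells (circles), with each gene's highest cell left out (squares) and without the Siglech and C1q sub-gates (triangles). Mgl2, Id2, Il1rn, Ccl3 and Ccl4 stayed on the same side of 1 and past 1.5-fold in all 3, while Clec4e, Ccl8, Gpnmb and Fabp5 moved toward 1 without the sub-gates for age.

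Lysosomal and lipid genes depended on which cells were used. Of 20, 8 were called higher and none lower in old PBS (median log2 ratio 0.53). Gpnmb stood at 248, 558 and 404 CPM and Fabp5, a fatty acid binding protein, at 456, 991 and 525 CPM. In the remaining cells 1 was called higher and 1 lower (median 0.11), and the age ratios of Gpnmb and Fabp5 were 1.20 (0.551 to 2.49) and 0.927 (0.728 to 1.17). That step needed both sub-gates left out, since the median was 0.68 without the C1q sub-gate alone and 0.45 without the Siglech sub-gate alone, and Gpnmb was high in both (1565 and 382 CPM, against 23.0 in the remaining cells). For treatment 2 were called higher and 3 lower (median −0.24), against 3 higher and none lower in the remaining cells (0.041), 1 higher and 10 lower without the C1q sub-gate alone (−0.61), and none higher and 13 lower when cells were thinned before selection (−1.11).

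Cell cycle genes depended on which cells were used. Of 23, 3 were called higher in old PBS (median 0.35) and 1 lower in old rMETRNL (median −0.21), but with each gene's highest cell left out the medians were −0.11 and 0.11. Without the sub-gates 7 of 20 were called higher and none lower in old PBS (median 0.41), and none higher and 6 lower in old rMETRNL (median −0.37). Mki67, a mark of dividing cells, stood at 114, 122 and 119 CPM.

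Transcripts of other cells differed between the libraries in the gate. Haemoglobin genes summed to 2060, 35.4 and 77.7 CPM, extracellular matrix genes of fibroblasts to 2003, 525 and 512 CPM, and muscle fibre genes to 60.7, 287 and 128 CPM. Other gates did not all follow. Haemoglobin genes summed to 13.4, 28.9 and 30.8 CPM in the Xcr1/Clec9a gate and to 27.5, 32.3 and 1799.7 CPM in the Ccr7/Ccl22 gate. Matrix genes summed to 1561, 834 and 275 CPM in the former and 584, 524 and 664 CPM in the latter. Muscle genes summed higher in old PBS than in young PBS in each of these gates. In the Cd209a gate all 4 haemoglobin genes and 9 of 10 matrix genes were called lower and 6 of 8 muscle genes higher in old PBS. In old rMETRNL 2 haemoglobin genes and 2 matrix genes were called higher and 6 muscle genes lower. The other matrix gene, Fn1, was called the opposite way in both comparisons (110, 269 and 111 CPM). The treatment calls differed in the remaining cells. There 6 of 9 matrix genes were called higher and none lower in old rMETRNL (median log2 ratio 1.03), with sums of 1695, 293 and 557 CPM. Of 5 muscle genes 1 was called lower (median −0.32), and 2 of 3 haemoglobin genes were called higher. In the whole gate the 6 endothelial markers summed to 155, 57.8 and 77.7 CPM, and all 4 measured were called lower in old PBS and none in old rMETRNL. These transcripts were among the largest ratios of the gate. In each comparison and direction 8 called genes were ranked by the bound of their interval nearest 1, and not by the ratio itself. The 8 lower in old PBS were Hbb-bs, Hba-a1, Hba-a2, Col1a1, Col1a2, Col6a3, Mfap5 and Igfbp6. For each of these 8 a single young PBS cell held between 48.1% (Col1a1) and 81.4% (Hbb-bs) of the library's UMIs. Among the 8 higher in old PBS, Tnnt3 and Myl1 are muscle fibre genes. Slc7a11, the cystine transporter, had 0.437, 59.6 and 13.3 CPM, and Srxn1, which repairs oxidised peroxiredoxins, 10.9, 66.2 and 31.2 CPM. Ear2, Mmp12, F10 and Ccl8 completed that set, and the Mmp12 age ratio was 0.912 in the remaining cells. The 8 higher in old rMETRNL were Fxyd7 (38.0, 2.80 and 23.7 CPM), Cst7, Hes1, Jun, Ifi44, Ifit3, Igfbp6 and Timp3. Hes1, a Notch target, had a treatment ratio of 4.76 in the gate and 0.442 in the remaining cells. The 8 lower in old rMETRNL were Thbs1 (100.4, 293 and 42.4 CPM), Timp1 (58.9, 138 and 30.3 CPM), Ear2, Slc7a11, Hist1h2ae, Cxcl9, Ckm and Clec4e. Among the remaining cells Thbs1 stood at 38.94, 42.27 and 21.00 CPM. Its treatment ratio was 0.145 in the gate and 0.497 (0.298 to 0.835) in the remaining cells. The treatment ratio of Ear2 was 0.209 in the gate and 0.5003 in the remaining cells. Monocyte genes summed to 2379, 1215 and 1576 CPM in the gate, with Ly6c2 at 589, 234 and 306 CPM and Plac8 at 1340, 578 and 803 CPM, and the part of these transcripts in the results above was not tested.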

How the data were processed

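The files hold UMI counts per gene and barcode for 3 10x libraries, which the authors deposited as Cell Ranger filtered matrices. The file headers give Cell Ranger 5.0.0, the submitters' processing notes list 5.0.0 and 3.1.0, and the build is mm10. Counts carried no normalization. Young PBS, old PBS and old rMETRNL had 1 library each, so depth set the precision only through counting error. Cells, gates and thresholds are given where they are first used, and no doublets were removed. UMIs were summed over gate cells per library and divided by the gate total. CPM intervals are exact Poisson, shares exact Clopper-Pearson, and ratios the exact conditional binomial interval of 2 counts, all at 95%. Calls needed 1.5-fold and an interval without 1, and 0.5 was added to each count for log2 ratios. Genes chosen by the gates were left out of calls, and a few genes are not reported here. The text names the markers, the 8 called genes per comparison and direction whose interval bound lay farthest from 1 and which were detected in at least 10 cells of the higher library, leading genes of each population comparison, called or abundant list members, and Kit and Metrnl. The members and the 22 gene lists were chosen with earlier results of these data known. Scripts used Python 3.11.15, numpy 2.4.6, scipy 1.17.1, pandas 2.3.3, scanpy 1.11.5 (Scrublet) and matplotlib 3.10.9, and were tested on simulated data. Positions are from GENCODE M21 and promoters from RefSeq. Alternatives were other gates, cell filters, thinning, doublet removal, scalings, gene filters and added counts.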

Additional observations from a re-analysis of the deposited data

How the results depend on the processing

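No paired analysis was possible because each group had 1 library. For the same reason no replicate could be left out, and counting error, largest in old PBS with 78 cells, was the only error measured. Leaving out the Siglech sub-gate, both sub-gates, or each gene's highest cell was chosen after seeing the data, as were the alternatives for the interferon-stimulated, stress and lysosome lists and for named genes. Both ratios of the gate's share of kept cells moved by less than their intervals, from 0.377 to 0.549 for age and 1.74 to 2.46 for treatment, under every alternative run but 1. That one, 2 Cd209a UMIs with no other condition, was added after seeing the data and gave 0.609 and 1.62. Interferon-stimulated medians ran from −1.04 to −0.55 for age and 0.48 to 0.81 for treatment.

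Counts of called genes depended on the filter. With at least 200 UMIs per gene, where fewer genes were measured, 336 were higher and 232 lower in old PBS and 152 higher and 153 lower in old rMETRNL; at 2-fold the counts were 233, 292, 141 and 130. The class II treatment median of −0.12 was 0.12 when cells were thinned before selection and −0.16 without both sub-gates. Cell cycle medians were −0.055 for age and 0.078 for treatment at 1 Cd209a UMI, and −0.11 and 0.11 without each gene's highest cell. Without both sub-gates the lysosome treatment median was 0.041. Single genes that changed sign on the log2 scale were Ccl8 for age (−0.27) and Igfbp6 (−0.90) and Timp3 (−0.090) for treatment at 1 Cd209a UMI, F10 for age (−0.44) and Cxcl9 for treatment (0.38) after thinning, Mmp12 for age (−0.091 without the C1q sub-gate, −0.027 without both) and Hes1 for treatment (−1.11 and −1.19). Within the Cd209a and Ly6c2 gates together the share ratios after thinning, an alternative added after seeing the data, were 1.08 for age and 0.976 for treatment. The cause of these changes was not tested.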
